A study of Mus musculus with 9 samples.

Results

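The DNA damage signalling and repair genes described here are 55 named genes that sense broken DNA, pass the signal on, or mend it. They were chosen by name from 9 roles, namely damage signalling, homologous recombination, end joining, single-strand break and base excision repair, the Fanconi anaemia pathway, nucleotide excision repair, translesion and theta polymerases, mismatch repair, and effectors induced by damage. All 55 have a probe on the array, among 37316 genes named there, and all 55 are among the 29410 genes that were tested. The probe used for each was well above background on all 9 arrays, so the filter on dim probes took none of the genes away.

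The cells are megakaryocytes of the bone marrow of male mice, the large polyploid cells that make platelets, in 3 groups of 3 arrays. Ctrl mice were not irradiated, and the methods describe sham handling for controls. The mice called 1 dpi and 3 dpi were taken 1 and 3 days after a single total-body dose of 5 Gy of cobalt γ-rays. The labels give no genotype, strain or age for these mice, and the series describes separate experiments with different donors at each time. Per the methods, the cells were enriched by selecting first CD41+ and then CD42d+ marrow cells, and the RNA came from sorted cells.

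As background, ionizing radiation breaks one or both DNA strands. Double-strand breaks activate the kinase Atm, and exposed single-stranded DNA activates Atr; both kinases mark the histone H2AX, switch on the checkpoint kinases and stabilize p53, mostly by changing proteins that are already there. Breaks are then rejoined directly by end joining, at any time in the cell cycle, or copied from a sister chromatid by homologous recombination, which needs replicated DNA. Megakaryocytes replicate their genome many times without dividing, so they carry many copies of each chromosome.

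Each array holds 62976 spots, of which 59305 are not controls, and none was saturated. The share of spots well above background ran from 69.1% to 81.8%. The 75th percentile of the log2 signal was 9.33 to 9.45 on the 1 dpi arrays, 10.03 to 10.66 on the Ctrl arrays and 10.37 to 10.55 on the 3 dpi arrays, so the 1 dpi arrays were the dimmest before scaling. Levels are given as log2 signal minus that percentile of the array; a level of 0 is a spot at the 75th percentile, and levels of different probes are not compared as amounts of RNA. With 3 arrays a group, the number of arrays limits the precision. Being well above background on all 9 arrays does not tell cell types apart here. It held for 24007 of the 29410 genes, and for all 10 neutrophil, 11 macrophage, 9 B cell and 10 stromal markers listed below. All 16 megakaryocyte markers, read beside the label of the cells, met it too. Their mean level was 1.68, 1.52 and 1.49 on the Ctrl arrays, 1.54, 1.5 and 1.41 at 1 dpi and 1.76, 1.75 and 1.75 at 3 dpi, and none of the 16 was called with limma in either comparison with Ctrl. At an unadjusted p under 0.05 the markers with higher values numbered 3 at 1 dpi and 6 at 3 dpi, and those with lower values 6 and 2. Of all genes, 39.3% were higher and 22.8% lower at that p at 1 dpi, and 22.7% and 18.9% at 3 dpi.

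One array stands apart before any comparison. Ctrl replicate 1 was on slide 1 alone and the other 8 arrays shared slide 2. Over all genes its median absolute difference from the other 2 Ctrl arrays was 0.249 on the log2 scale, against 0.0784 to 0.146 for the other 8 arrays, and 15% of genes were more than 2-fold away. Over the 55 repair genes the same median was 0.129, against 0.0561 to 0.123 for the other 8 arrays, with 3 dpi replicate 1 at 0.123. Where leaving it out moved the adjusted p of a member's value against Ctrl, as printed below for its brightest probe, across 0.05, the value without it is given too.

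The first question is how the repair genes of these cells stood 1 day after irradiation. A gene is called here if it differs 2-fold or more and its adjusted p (Benjamini-Hochberg) is under 0.05, and it is said to have risen or fallen when it passes the adjusted p alone. At 1 dpi 5 of the 55 members were called higher, where 12.3% of all genes were, and 1 was called lower, where 2.87% of all genes were. The members called higher were Rad51c, Ung, Ercc5, Gadd45b and Dclre1c, and the member called lower was Lig4. By adjusted p alone, 9 members rose, against a background of 34.8% of genes, and 30 fell, against 21.1%. Most differences, in either direction, were small: 37 of the 55 members lay within 0.5 of 0 on the log2 scale, and the whole range was -1.43 to 1.61.

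The median log2 difference of the 55 members at 1 dpi was -0.27, while that of all genes tested was 0.25, which leaves the members at -0.51 relative to all genes. Without Ctrl replicate 1 the medians were -0.26 for the members and 0.15 for all genes. The shift of all genes depends on how arrays are scaled: with each array set to its own median it was -0.07, and the members' median was then -0.58. The median of the members was below 0 under each scaling tried. The calls moved with the scaling as well: on the arrays set to their median, 2 members were called higher and 7 lower at 1 dpi. Of all 29410 genes, 1993 were then called higher and 2087 lower. Rad51c was called higher and Lig4 lower under all 25 other settings. Differences also went with brightness. In 5 equal bins from the dimmest to the brightest genes, 5882 genes each, the median difference at 1 dpi was 0.62, 0.54, 0.23, -0.10 and 0.05. Of the members, 41 belong to the brightest 2 bins, with a median of -0.29 for the 28 in bin 4 and of -0.07 for the 13 in bin 5. The 13 members in bin 3 had a median of -0.18. The part of brightness in the members' median was not tested beyond these values.

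**Figure D1:**
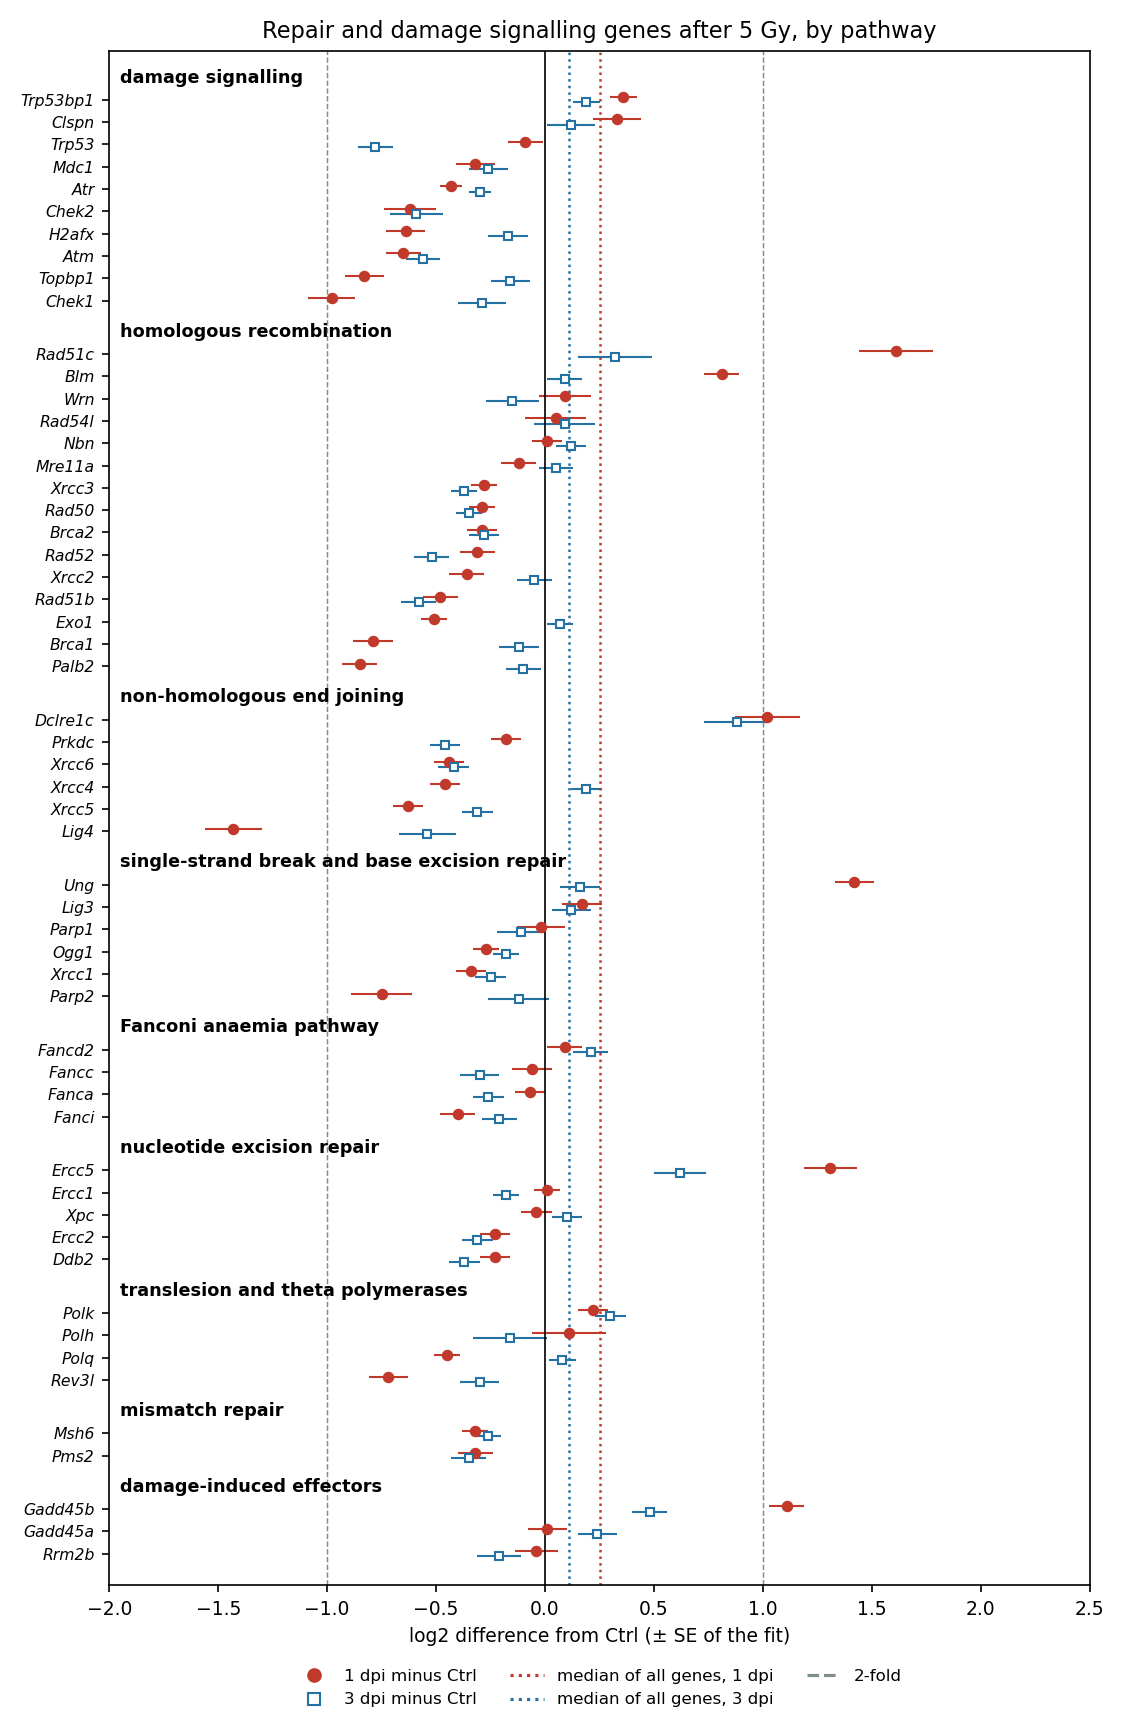
Log2 difference from Ctrl (horizontal axis) of each of the 55 members, grouped by pathway. Red circles are 1 dpi and blue open squares 3 dpi, with bars for the SE of the fit; dotted lines mark the median of all genes (0.25 at 1 dpi, 0.11 at 3 dpi) and dashed lines a 2-fold difference. Most circles lie left of 0, 5 lie right of the 2-fold line and Lig4 lies left of it.

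Where a gene has several probes, the brightest stands for it, and for the repair genes the choice mattered. The 55 members have 130 probes that passed the filter, 41 members have more than 1, and for 26 of these the probes differed in direction or by more than 1 on the log2 scale at 1 dpi. The difference was ordered along the gene, which was looked at after the values were seen. For the same 41 members, the probe nearest the 3′ end had a median difference of -0.31 at 1 dpi and the probe nearest the 5′ end one of 0.06. The 5′ probe gave the higher difference in 33 of the 41, or 80.5%, compared with 60.6% of the 9104 genes with probes at both ends. With adjustment over all 44300 probes, 27 of the 41 fell and 4 rose at the 3′ probe, while 7 fell and 13 rose at the 5′ probe. Of the 9104 genes, 3119 fell and 2474 rose at the 3′ probe, while 1603 fell and 3316 rose at the 5′ probe. The brightest probe was the 3′ one in 29 of the 41, and the 5′ probe was dimmer than the 3′ one in 34. Of the 130 probes, 6 were not well above background on all 9 arrays, and 5 of the 41 members have such a probe at an end. With only genes whose end probes were both well above it on all 9, a choice made after seeing the data, the 5′ probe was higher at 1 dpi in 31 of 36 members, or 86.1%, and in 62% of 7298 genes. For the 29 members whose brightest probe is the 3′ one, the value used for the gene is thus that of its 3′ end. With the mean of all probes in place of the brightest, the members' median at 1 dpi was -0.09. Whether position, brightness or RNA length went into this was not tested, and the files do not mark exons.

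**Figure D2:**
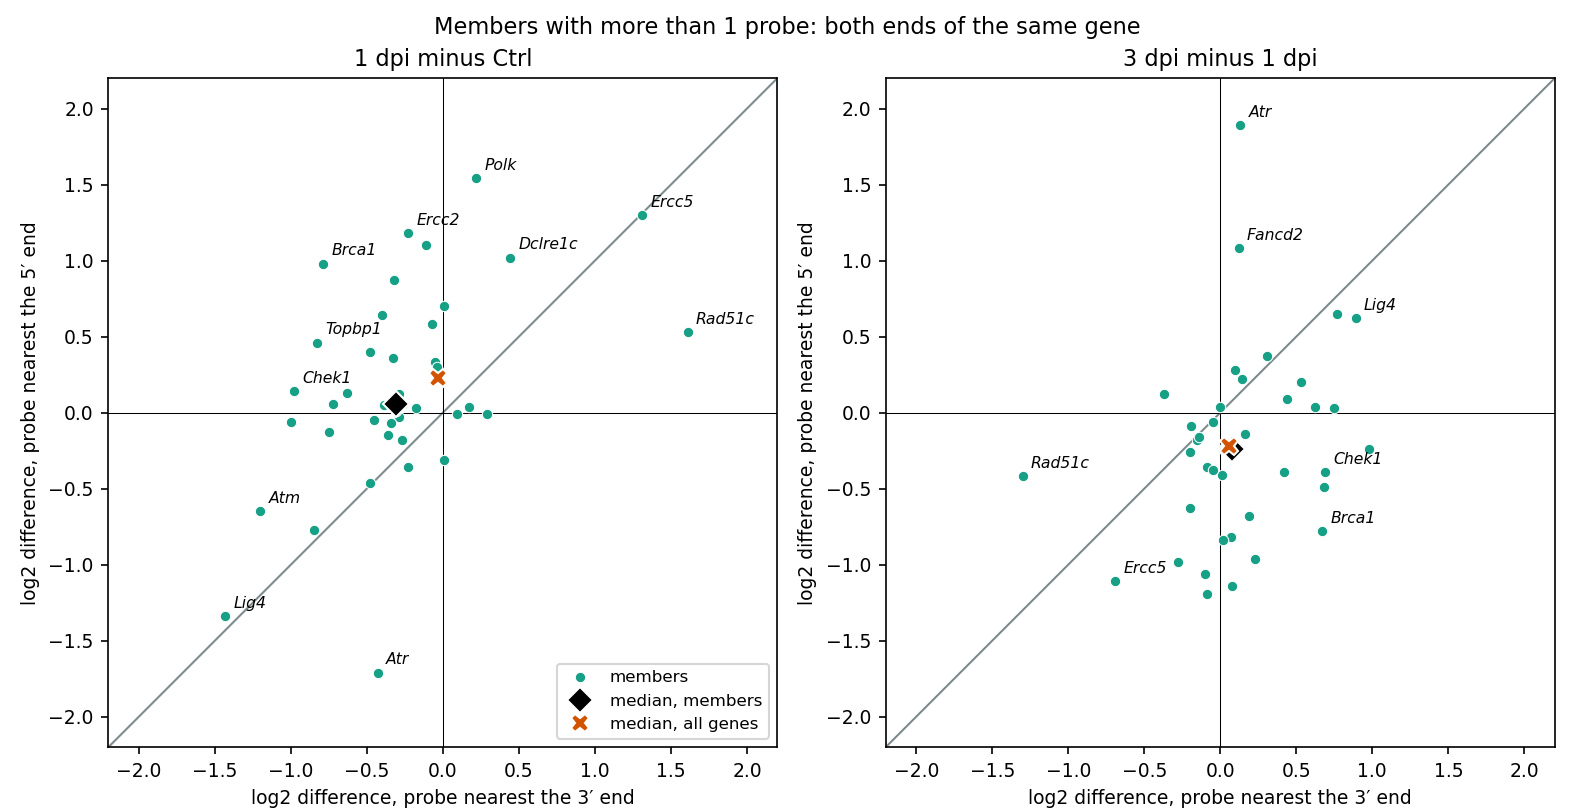
Log2 difference at the probe nearest the 3′ end (horizontal axis) and at the probe nearest the 5′ end (vertical axis) for the 41 members with more than 1 probe, 1 dpi minus Ctrl on the left and 3 dpi minus 1 dpi on the right. Black diamonds are the medians of the members, orange crosses those of 9104 genes, and the grey line marks equal differences. On the left 33 of the 41 points lie above the line and on the right 9 do.

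The 6 called members do not all act in the same pathway, and their promoters are shown to see whether they share short sequence words. Rad51c acts in homologous recombination, Ung cuts uracil out of DNA, and Ercc5 (XPG) is a nuclease of nucleotide excision repair. Gadd45b is a stress-response protein, Dclre1c (Artemis) opens hairpins and trims ends, and Lig4 seals the break in end joining. RefSeq promoters of the build GRCm38.p6 were matched for 43 of the 55 members, each of 300 bases that run from 250 before the start of the gene to a little after it. The words searched, on both strands, were TTTGAA, then the shorter CCAAT (the word of the factor NF-Y) and any of TTTGGCGC, TTTCCCGC, TTTCGCGC and TTTGCCGC (words of the E2F type). CCAAT was in 25 of the 43 members' promoters, or 58.1%, and in 41.1% of 27025 genes. An E2F-type word was in 8 of the 43, or 18.6%, and in 2.6% of all. TTTGAA was in 3 of the 43, or 6.98%, and in 20.2% of all. Of the 8 members with an E2F-type word, 2 rose and 6 fell at 1 dpi by adjusted p alone. Of the 25 with CCAAT, 5 rose and 14 fell. Among all 55 members 9 rose and 30 fell, and among all genes 34.8% rose and 21.1% fell. A difference between members with and without a word was not tested. A match is a description of letters and names no bound factor.

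Below are the 250 bases before the start of the 3 called members that hold one of the words there, and of Ung, the called member with the smallest adjusted p, which holds none. The capitals mark CCAAT or its reverse, ATTGG, and in Ercc5 also the reverse of TTTGAA. Dclre1c lies at chr2:3423881-3424130 and has 3 such words, Ercc5 at chr1:44147494-44147743 and has 2, Gadd45b at chr10:80929841-80930090 and has 2, and Ung at chr5:114130185-114130434, all on the plus strand. Neither of the 2 start sites of Rad51c and neither of the 2 of Lig4 has any of the words in these 250 bases; Rad51c is among the 8 members with an E2F-type word because the 300 bases searched reach past the start.
Dclre1c promoter: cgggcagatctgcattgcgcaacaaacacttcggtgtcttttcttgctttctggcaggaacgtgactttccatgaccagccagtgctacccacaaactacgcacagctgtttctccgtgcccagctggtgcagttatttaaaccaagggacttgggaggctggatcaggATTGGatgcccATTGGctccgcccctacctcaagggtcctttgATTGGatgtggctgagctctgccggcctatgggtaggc
Ercc5 promoter: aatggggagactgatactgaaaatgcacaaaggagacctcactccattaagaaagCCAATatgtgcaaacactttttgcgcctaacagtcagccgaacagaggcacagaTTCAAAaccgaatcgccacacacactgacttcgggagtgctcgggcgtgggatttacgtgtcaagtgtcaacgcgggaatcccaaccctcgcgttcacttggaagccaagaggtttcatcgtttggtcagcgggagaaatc
Gadd45b promoter: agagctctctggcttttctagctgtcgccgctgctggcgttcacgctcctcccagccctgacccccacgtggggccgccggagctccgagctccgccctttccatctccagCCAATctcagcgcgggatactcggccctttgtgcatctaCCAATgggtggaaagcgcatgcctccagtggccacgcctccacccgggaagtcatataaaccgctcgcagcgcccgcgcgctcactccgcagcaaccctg
Ung promoter: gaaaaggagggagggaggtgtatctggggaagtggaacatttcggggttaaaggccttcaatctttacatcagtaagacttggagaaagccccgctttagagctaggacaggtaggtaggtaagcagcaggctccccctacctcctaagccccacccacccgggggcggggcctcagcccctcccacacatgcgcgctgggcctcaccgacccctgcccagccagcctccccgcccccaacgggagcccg

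Among the 10 damage signalling genes, 2 rose and 7 fell at 1 dpi by adjusted p alone, where 34.8% and 21.1% of all genes did. At an unadjusted p under 0.05 the counts were the same, where 39.3% of all genes were higher and 22.8% lower. None was called with limma, and the median was -0.52 (-0.26 with the mean of all probes). Atm, the kinase that answers double-strand breaks, had levels of -0.06, -0.16 and -0.18 on the Ctrl arrays, -0.77, -0.83 and -0.76 at 1 dpi and -0.84, -0.64 and -0.62 at 3 dpi. All irradiated arrays lay below all Ctrl arrays, and the days overlapped each other. The difference was -0.65 ± 0.08 (SE, adjusted p = 0.00032) at 1 dpi and -0.56 (adjusted p = 0.001) at 3 dpi. Both probes of Atm gave a fall at 1 dpi, of -0.65 at the 5′ one and -1.2 at the 3′ one. Atr, the kinase for single-stranded DNA, fell by 0.43 (adjusted p = 0.00034), and its 8 probes ranged from -1.71, at a dim 5′ probe well above background on 8 of 9 arrays, to -0.11.

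H2afx encodes the histone that these kinases mark around a break. Its levels were 4.92, 4.75 and 4.73 in Ctrl, 4.15, 4.20 and 4.14 at 1 dpi and 4.78, 4.56 and 4.55 at 3 dpi. The 1 dpi arrays were below all others, and Ctrl and 3 dpi overlapped. The difference was -0.64 ± 0.09 (SE, adjusted p = 0.00059) at 1 dpi and -0.17 (adjusted p = 0.17) at 3 dpi, and from 1 to 3 dpi it rose by 0.47 (adjusted p = 0.0034). Trp53, which encodes p53, had levels of 0.80, 0.85 and 0.90 in Ctrl, 0.66, 0.71 and 0.91 at 1 dpi and 0.06, 0.03 and 0.13 at 3 dpi. Here it is day 3 that lies apart, below all other arrays, while Ctrl and 1 dpi overlap. Its difference was -0.09 (adjusted p = 0.35) at 1 dpi, -0.78 ± 0.08 (SE, adjusted p = 0.00021) at 3 dpi and -0.69 (adjusted p = 0.00042) from 1 to 3 dpi. H2afx and Trp53 are each read by 1 probe.

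The checkpoint kinases that act below Atr and Atm had lower values too. Chek1 had the lowest value of this pathway at 1 dpi, -0.98 (adjusted p = 0.00022), and rose by 0.69 from 1 to 3 dpi (adjusted p = 0.0016). Chek2 was at -0.62 at 1 dpi and at -0.59 at 3 dpi. Topbp1, the activator of Atr, was at -0.83 at 1 dpi and at -0.16 at 3 dpi at its brightest probe. At 1 dpi its 5′ probe rose by 0.46 (adjusted p = 0.042). Further probes of Topbp1 rose by 0.35 (adjusted p = 0.036) and 0.66 (adjusted p = 0.0028), and another fell by 0.39 (adjusted p = 0.0087). No single direction can therefore be given for Topbp1. For Chek1 the 5′ probe did not fall by the test, at 0.14 (adjusted p = 0.23). From 1 to 3 dpi the 5′ probe of Chek1 fell by 0.39 (adjusted p = 0.0096), against the rise at its 3′ probe. Mdc1, the scaffold that binds marked H2AX, fell by 0.32 at its brightest probe, and its 5′ probe gave 0.87. The highest value of the pathway was that of Trp53bp1, which steers breaks to end joining, at 0.36 (adjusted p = 0.0021). That probe lies at chr2:121093053-121093112 on mm9, apart from the 3′ probe at chr2:121021126-121021185, which gave -0.33. Clspn, the adaptor for Chek1 activation, rose by 0.33 (adjusted p = 0.036), or 0.21 without Ctrl replicate 1 (adjusted p = 0.042), with -0.05 at its 3′ probe.

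Homologous recombination holds 15 of the members. At 1 dpi 2 rose and 9 fell by adjusted p alone, where 34.8% and 21.1% of all genes did. The median was -0.29 (-0.12 with the mean of all probes). Rad51c had levels of 3.73, 4.39 and 4.38 in Ctrl, 5.87, 5.80 and 5.67 at 1 dpi and 4.5, 4.43 and 4.53 at 3 dpi. All 1 dpi arrays were above all others, Ctrl replicate 1 was the lowest, and the 3 dpi arrays were just above the other Ctrl arrays. The difference at 1 dpi was 1.61 ± 0.17 (SE, adjusted p = 2e-04), and 1.39 without Ctrl replicate 1. At 3 dpi it was 0.32 (adjusted p = 0.21), or 0.10 without that array (adjusted p = 0.36), and from 1 to 3 dpi Rad51c fell by 1.30 (adjusted p = 0.00082). Its second probe, at chr11:87191873-87191932 on mm9, gave 0.53 at 1 dpi (adjusted p = 0.054) against 1.61 at the brighter one at chr11:87190997-87191056, and -0.42 from 1 to 3 dpi (adjusted p = 0.13).

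Blm, a helicase that dissolves crossed DNA strands, was the other member of this pathway counted as risen, by 0.81 (adjusted p = 0.00014) at its brightest probe. Its 3′ probe, of nearly the same signal, fell by 0.27 (adjusted p = 0.02), and its 5′ probe gave -0.18, so its probes do not agree on a direction. The lowest value was that of Palb2, the bridge between Brca1 and Brca2, at -0.85 (adjusted p = 0.00012), with -0.77 at its 5′ probe. From 1 to 3 dpi its brightest probe, the 3′ one, rose by 0.75 (adjusted p = 0.00035), while the 5′ probe gave 0.03 (adjusted p = 0.92) and was still at -0.75 at 3 dpi (adjusted p = 0.018). Brca1 itself is a gene whose ends part. Its brightest probe, at chr11:101350409-101350468 on mm9, fell by 0.79 (adjusted p = 0.00033), its middle probe gave 0.19, and its 5′ probe, at chr11:101386419-101386478, rose by 0.98 (adjusted p = 0.00034). From 1 to 3 dpi the same probes gave 0.67, -0.61 and -0.78. No single direction can therefore be given for Brca1.

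The break-binding complex, which holds a break's ends and calls Atm, differed little. Rad50 fell by 0.29 at 1 dpi (adjusted p = 0.0056), Mre11a was at -0.12 (adjusted p = 0.23) and Nbn at 0.01 (adjusted p = 0.92), a value that turns negative under 6 of 25 other settings. Brca2 was at -0.29 and Xrcc3 at -0.28 at 1 dpi, with much the same values at 3 dpi, -0.28 and -0.37. Rad51b and Rad52, which also help strand exchange, were at -0.48 and -0.31 at 1 dpi and at -0.58 and -0.52 at 3 dpi. The 5′ probe of Rad51b rose by 0.40 at 1 dpi (adjusted p = 0.04) and was at -0.67 at 3 dpi, and that of Rad52 gave 0.01 at 1 dpi. Exo1, the nuclease that resects ends, was at -0.51 at 1 dpi and at 0.07 at 3 dpi, and its rise between the days was 0.58 (adjusted p = 0.00032). Xrcc2 was at -0.36, and Rad54l and Wrn, at 0.05 and 0.09, did not pass the test at their brightest probes, while their 3′ probes fell by 0.39 and 0.26 and a dimmer probe of Wrn rose by 0.75 (adjusted p = 0.011).

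The 4 members of the Fanconi anaemia pathway, which unhooks crosslinked strands, had a median of -0.06 at 1 dpi, and of 0.12 with the mean of all probes. At 1 dpi the one that fell was Fanci, at -0.40 (adjusted p = 0.0046), and the highest was Fancd2, at 0.09 (adjusted p = 0.35). At 3 dpi Fanca and Fancc fell, by 0.26 and 0.30. The 3′ probe of Fancc gave -1.0 at 1 dpi where its brightest probe gave -0.06. The other probes of Fanca rose, by 0.63 (adjusted p = 0.001) and 0.58 (adjusted p = 0.011), and the 5′ probe of Fanci gave 0.64 (adjusted p = 0.059). Of the 8 other Fanconi anaemia genes in the list of further repair genes, all 8 fell at 1 dpi by adjusted p alone, where 21.1% of all genes did, with a median of -0.63, and none was called with limma. The difference between these 8 and the 4 members was not tested. Their median at 3 dpi was -0.18, where 2 fell.

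End joining ranged from -1.43 to 1.02 over 6 members at 1 dpi. By adjusted p alone 1 of them rose and 4 fell, where 34.8% and 21.1% of all genes did. Lig4 had levels of -0.98, -1.03 and -1.17 in Ctrl, -2.79, -2.39 and -2.29 at 1 dpi and -1.67, -1.55 and -1.57 at 3 dpi. The groups do not overlap: Ctrl was highest, 1 dpi lowest and 3 dpi between them. The difference was -1.43 ± 0.13 (SE, adjusted p = 9.7e-05) at 1 dpi and -0.54 (adjusted p = 0.016) at 3 dpi, with a rise of 0.89 between the days (adjusted p = 0.0013). Its 2 probes, at chr8:9970290-9970349 and chr8:9971496-9971555 on mm9, gave -1.43 and -1.34. Lig4 was called lower at 1 dpi under all 25 other settings, with values from -1.75 to -1.04.

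Dclre1c went the other way, with levels of -0.10, 0.44 and 0.44 in Ctrl, 1.34, 1.26 and 1.24 at 1 dpi and 1.31, 1.07 and 1.04 at 3 dpi. All irradiated arrays were above all Ctrl arrays, and the days overlapped. The difference was 1.02 ± 0.15 (SE, adjusted p = 0.0011) at 1 dpi and 0.88 (adjusted p = 0.0035) at 3 dpi, where it was the highest of all 55 members. It sits at the 2-fold line: without Ctrl replicate 1 it was 0.84 at 1 dpi and no longer called. All 3 of its probes rose at 1 dpi, by 1.02, 0.81 and 0.44.

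The Ku subunits Xrcc6 and Xrcc5, which ring the broken end, fell by 0.44 and 0.63 at 1 dpi and by 0.42 and 0.31 at 3 dpi. Prkdc, the kinase that Ku recruits, was at -0.18 at 1 dpi and fell by 0.46 at 3 dpi (adjusted p = 0.0013). Xrcc4, the partner of Lig4, fell by 0.46 at 1 dpi and was at 0.19 at 3 dpi (adjusted p = 0.06; 0.24 without Ctrl replicate 1, adjusted p = 0.017), with a rise of 0.65 between the days (adjusted p = 0.00025). Of the enzymes of this pathway, then, the ligase and its partner had their lowest values at 1 dpi, and Prkdc had its lowest at 3 dpi.

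Single-strand break and base excision repair had a median of -0.14 at 1 dpi (0.09 with the mean of all probes). By adjusted p alone 1 of 6 members rose and 3 fell, where 34.8% and 21.1% of all genes did. The one that rose was Ung, at 5.75, 5.42 and 5.47 in Ctrl, 6.97, 6.97 and 6.96 at 1 dpi and 5.71, 5.69 and 5.71 at 3 dpi. The 1 dpi arrays were almost equal and lay above all others. The 3 dpi arrays lay below Ctrl replicate 1 and above the other Ctrl arrays. The difference was 1.42 ± 0.09 (SE, adjusted p = 1.5e-05) at 1 dpi, 0.16 (adjusted p = 0.22) at 3 dpi and -1.26 (adjusted p = 5.3e-05) between the days. Without Ctrl replicate 1 the value at 3 dpi was 0.26 (adjusted p = 0.0054). Ung has 1 probe, at chr5:114588731-114588790 on mm9. In the authors' deposited table its rise at 1 dpi was 0.90 and under 2-fold.

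Parp1, the sensor of nicks, had levels of 0.71, 0.53 and 0.46 in Ctrl, 0.41, 0.56 and 0.68 at 1 dpi and 0.63, 0.33 and 0.41 at 3 dpi. All groups overlap, and the difference was -0.02 ± 0.11 (SE, adjusted p = 0.88; 0.05 without Ctrl replicate 1) at 1 dpi and -0.11 (adjusted p = 0.48) at 3 dpi. Its relative Parp2 had the lowest value of the pathway at 1 dpi, -0.75 (adjusted p = 0.0035), read at its 3′ probe, while the 5′ probe gave -0.13. Xrcc1, the scaffold of nick repair, was at -0.34 at 1 dpi and -0.25 at 3 dpi, and Lig3, its ligase, was at 0.17 (adjusted p = 0.14), or 0.26 without Ctrl replicate 1 (adjusted p = 0.0071). Ogg1, which removes oxidized guanine, fell by 0.27 at its brightest probe. Another Ogg1 probe at the same position gave -0.11 (adjusted p = 0.25). The dim 5′ probe of Ogg1, well above background on 7 of 9 arrays, had higher values at 1 dpi.

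In nucleotide excision repair 1 of 5 members rose and 2 fell at 1 dpi by adjusted p alone, where 34.8% and 21.1% of all genes did. Ercc5 had levels of -1.66, -1.92 and -2.05 in Ctrl, -0.63, -0.49 and -0.60 at 1 dpi and -1.09, -1.38 and -1.31 at 3 dpi. The groups were apart, with Ctrl lowest, 1 dpi highest and 3 dpi between. The difference was 1.31 ± 0.12 (SE, adjusted p = 9.6e-05) at 1 dpi, 0.62 (adjusted p = 0.0054) at 3 dpi and -0.69 (adjusted p = 0.0027) between the days. Its 3 probes gave 1.31, 0.91 and 1.30 at 1 dpi, so both ends of Ercc5 rose alike; at 3 dpi its 5′ probe gave 0.19 (adjusted p = 0.21). Ddb2, the sensor of ultraviolet lesions, had the lowest value, -0.23 at 1 dpi (adjusted p = 0.018) and -0.37 at 3 dpi (adjusted p = 0.0035). The helicase Ercc2 was at -0.23 with 1.18 at its 5′ probe, and Ercc1 and Xpc, at 0.01 and -0.04, did not pass the test at their brightest probes. The 5′ probe of Ercc1 fell by 0.31 at 1 dpi (adjusted p = 0.044) and by 0.40 at 3 dpi (adjusted p = 0.026). That of Xpc gave 0.30 at 1 dpi (adjusted p = 0.24).

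Gadd45b had levels of 1.63, 1.44 and 1.57 in Ctrl, 2.70, 2.63 and 2.63 at 1 dpi and 2.15, 2.0 and 1.94 at 3 dpi. Again the groups were apart and 3 dpi lay between the others. The difference was 1.11 ± 0.08 (SE, adjusted p = 2.8e-05) at 1 dpi, 0.48 (adjusted p = 0.0024) at 3 dpi and -0.63 (adjusted p = 0.00063) between the days, read by 1 probe. The other damage-induced effectors among the members showed no such step at their brightest probes. Gadd45a was at 0.01 (adjusted p = 0.92) and Rrm2b, the damage-induced ribonucleotide reductase subunit, at -0.04 (adjusted p = 0.78). The probe of Rrm2b was dim, with levels from -3.85 to -3.43. Over the 25 other settings its value ran from -0.36 to 0.33, with a lowest adjusted p of 0.0015. Gadd45g, from the list of further repair genes, rose by 0.70 at 1 dpi (adjusted p = 0.00056). For Gadd45a the sign of the 0.01 turns under 9 of 25 other settings, and its 5′ probe rose by 0.70 (adjusted p = 0.00071).

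The polymerases that copy past lesions were split. Rev3l, the catalytic subunit of polymerase zeta, had the lowest value at 1 dpi, -0.72 (adjusted p = 0.00037), with 0.06 at its 5′ probe. Polq, the theta polymerase of microhomology joining, fell by 0.45 at 1 dpi and rose by 0.53 between the days (adjusted p = 6e-04), with -0.05 and 0.20 at its 5′ probe. Polk rose by 0.22 (adjusted p = 0.023) at its brightest probe and by 1.54 (adjusted p = 3.1e-05) at its 5′ one. Polh was at 0.11 (adjusted p = 0.60), or 0.30 without Ctrl replicate 1 (adjusted p = 0.044). Its 3′ probe fell by 0.63 at 1 dpi (adjusted p = 0.005) and rose by 0.98 between the days (adjusted p = 0.00081), so no single direction can be given for Polh either. Both mismatch repair members, Msh6 and Pms2, fell by 0.32 at 1 dpi, and by 0.26 and 0.35 at 3 dpi, at their brightest probes. The 6 kept probes of Pms2 differed in sign, from -0.52 to 0.29 at 1 dpi and from -0.35 to 0.12 at 3 dpi. The 0.29 was at its 3′ probe (adjusted p = 0.35).

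**Figure D3:**
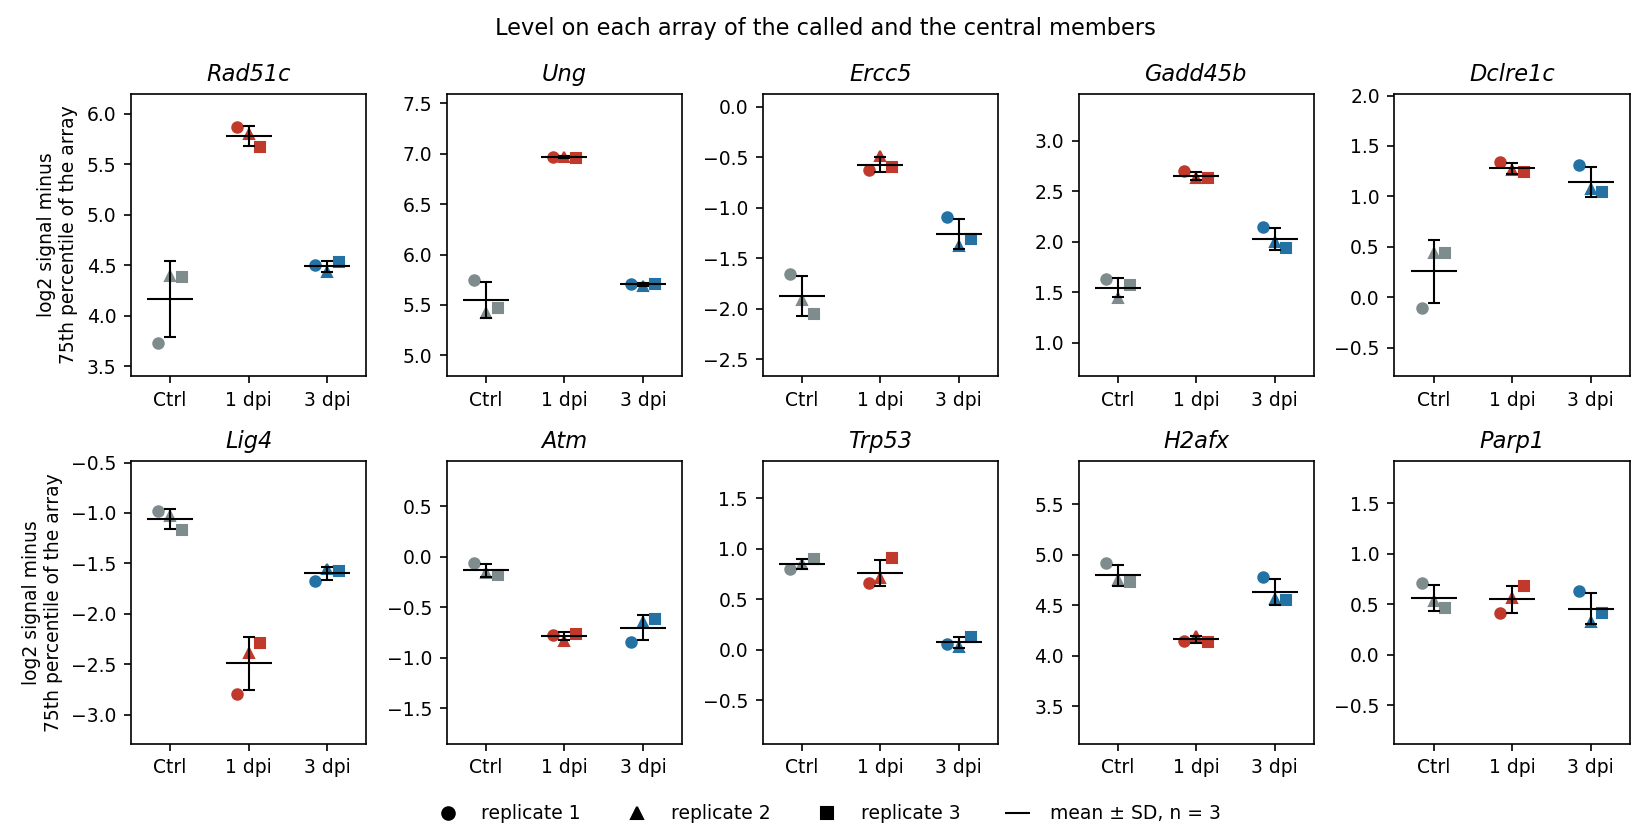
Level on each array (vertical axis, log2 signal minus the 75th percentile of the array, each panel spanning the same range) of the 6 called members and of Atm, Trp53, H2afx and Parp1, in Ctrl (grey), 1 dpi (red) and 3 dpi (blue). Symbols are replicates and black bars the mean ± SD of 3 arrays. Rad51c and Ung are highest at 1 dpi, Lig4 is lowest at 1 dpi, Trp53 is lowest at 3 dpi, and the groups overlap for Parp1.

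The next question is what was left of this 3 days after irradiation; it rests on the same Ctrl arrays as the first comparison. No member was called at 3 dpi with limma, in either direction, where 6.98% of all genes were called higher and 1.82% lower; at an unadjusted p under 0.05, 8 members were higher, where 22.7% of all genes were, and 26 lower, where 18.9% were. By adjusted p alone 4 rose, against 16.9% of genes, and 22 fell, against 15.1%. Those that rose were Dclre1c, Ercc5, Gadd45b and Polk (without Ctrl replicate 1 also Ung, Xrcc4 and Lig3, by their brightest probes), and the lowest values were those of Trp53, Chek2 and Rad51b. The members' median was -0.17, or -0.29 relative to all genes, whose median was 0.11. Without Ctrl replicate 1 the medians lay closer, at -0.12 for the members and 0.01 for all genes. By pathway the median was -0.36 for end joining, -0.31 for mismatch repair, -0.28 for damage signalling and -0.24 for the Fanconi anaemia pathway. It was -0.18 for nucleotide excision repair, -0.12 for single-strand break and base excision repair and -0.10 for homologous recombination. The median was -0.04 for the translesion and theta polymerases and 0.24 for the effectors induced by damage. At 3 dpi the medians of the 41 members were -0.18 at the 3′ probe and -0.04 at the 5′ probe, and the 5′ probe was higher in 63.4% of them and in 45.6% of all genes.

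Day 3 was also set against day 1 directly, which needs no Ctrl array. No member was called higher, where 3.97% of all genes were, and 2 were called lower, Rad51c and Ung, where 4.82% were. With limma, at an unadjusted p under 0.05, 15 members were higher, where 22.7% of all genes were, and 12 lower, where 29.8% were. By adjusted p alone 13 members rose, against 19.8% of genes, and 8 fell, against 24.9%. The members' median was 0.03, a value whose sign turns with the mean of all probes (-0.08), with another background correction (-0.01) and without 3 dpi replicate 1 (-0.01), and that of all genes was -0.11. At the brightest probe the largest rises were Lig4 at 0.89, Palb2 at 0.75 and Chek1 at 0.69. Of these, both probes of Lig4 rose, whereas the 5′ probes of Palb2 and Chek1 gave 0.03 and -0.39. For the 41 members with several probes the order along the gene was the other way round from that at 1 dpi, with a median of 0.08 at the 3′ probe, -0.24 at the 5′ probe, and the 5′ probe higher in 9, or 22%. Of all genes 34.2% had the 5′ probe higher, so most genes had this order too. With both ends well above background on all 9 arrays it was 5 of the 36 members, or 13.9%, and 33% of all genes.

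A list of 79 other repair genes, written by the same 9 pathways, was read beside the members. Their median was -0.28 at 1 dpi and -0.11 at 3 dpi. At 1 dpi 1 was called higher, where 12.3% of all genes were, and 1 lower, where 2.87% were. By adjusted p alone 9 rose, where 34.8% of all genes did, and 45 fell, where 21.1% did. At 3 dpi none was called with limma. At an unadjusted p under 0.05, 5 were then higher, where 22.7% of all genes were, and 29 lower, where 18.9% were. The genes called at 1 dpi were Mgmt, which removes alkyl groups from guanine, at 2.10, and Ercc6, which acts at stalled transcription, at -1.41. Without Ctrl replicate 1 Mgmt was also called higher at 3 dpi, at 1.01 (limma, adjusted p = 2.3e-05), against 0.93 with that array. In contrast, of 20 targets of p53 outside repair 15 were called higher at 1 dpi, with a median of 1.63, and 6 at 3 dpi, with a median of 0.58. Among them, Phlda3 was at 5.34, Zmat3 at 4.36 and Cdkn1a, the inhibitor of cyclin-dependent kinases, at 3.87 at 1 dpi. These p53 targets stood high on the arrays on which Trp53 itself did not differ from Ctrl by the test in the main fit. Over the 25 other settings Trp53 ran from -0.41 to -0.04 at 1 dpi, with a lowest adjusted p of 0.024. Of 28 proliferation genes none was called with limma in either comparison with Ctrl. At an unadjusted p under 0.05, 4 were higher at 1 dpi, where 39.3% of all genes were, and 12 lower, where 22.8% were. At 3 dpi 10 were higher, where 22.7% of all genes were, and 0 lower, where 18.9% were. The median of the 28 was -0.11 at 1 dpi and 0.12 at 3 dpi.

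Markers of other marrow cells moved with the groups. Of 9 B cell markers 8 were called lower at both days, with a mean level of 0.47, 0.37 and 0.39 in Ctrl, -2.57, -2.59 and -2.61 at 1 dpi and -2.21, -2.24 and -2.24 at 3 dpi. Of 10 erythroid markers 7 were called lower and 1 higher at 1 dpi, and at 3 dpi 8 were lower, with mean levels of 1.36, 1.21 and 1.23 in Ctrl, -1.07, -1.10 and -1.21 at 1 dpi and -0.51, -0.40 and -0.51 at 3 dpi. Both lists had lower mean levels on every irradiated array than on any Ctrl array. Of 10 stromal markers 8 were called higher at 1 dpi and 7 at 3 dpi, with mean levels of -1.75, -1.53 and -1.46 in Ctrl, 0.08, -0.18 and 0.07 at 1 dpi and 1.03, 0.83 and 0.89 at 3 dpi. Of 11 macrophage markers, those called at 1 dpi were 4 higher and 1 lower, and at 3 dpi 8 higher, with mean levels of 1.14, 1.03 and 0.97, then 1.45, 1.36 and 1.46, then 2.75, 2.79 and 2.79.

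Other lists were read beside the same shares of all genes. At 1 dpi the neutrophil and the T and NK cell counts were near the 12.3% of all genes called higher. Neutrophil markers (10) had a median of 0.52 at 1 dpi and 0.02 at 3 dpi, with 2 called higher at 1 dpi. Their mean levels were 6.1, 6.14 and 6.12 in Ctrl, 6.68, 6.61 and 6.62 at 1 dpi and 6.14, 6.05 and 6.12 at 3 dpi. These were the highest of the marker lists, though levels of different probes are not compared as amounts of RNA. Endothelial markers (8) were at 0.67 and 1.68, with 3 and 5 called higher, and T and NK cell markers (7 tested of 8) at 0.56 and 0.76, with 1 and 3 called higher. Stem and progenitor markers (8) were at -0.45 and -1.02, with 3 and 4 called lower, and had mean levels of 0.91, 1.03 and 1.01 in Ctrl, 0.31, 0.31 and 0.36 at 1 dpi and -0.01, -0.21 and -0.26 at 3 dpi. Repair genes are expressed in most of these cells too. In such bulk samples fewer cells of a type and less RNA per cell cannot be told apart. Without Ctrl replicate 1 the markers called at 1 dpi were 1 of the neutrophil list, none of T and NK cells and 2 of stem and progenitor cells, of which 5 were called at 3 dpi, and 6 erythroid markers were lower at 1 dpi; the counts of the other marker lists stayed. The part of these cells in the values of the repair genes was not tested.

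**Figure D4:**
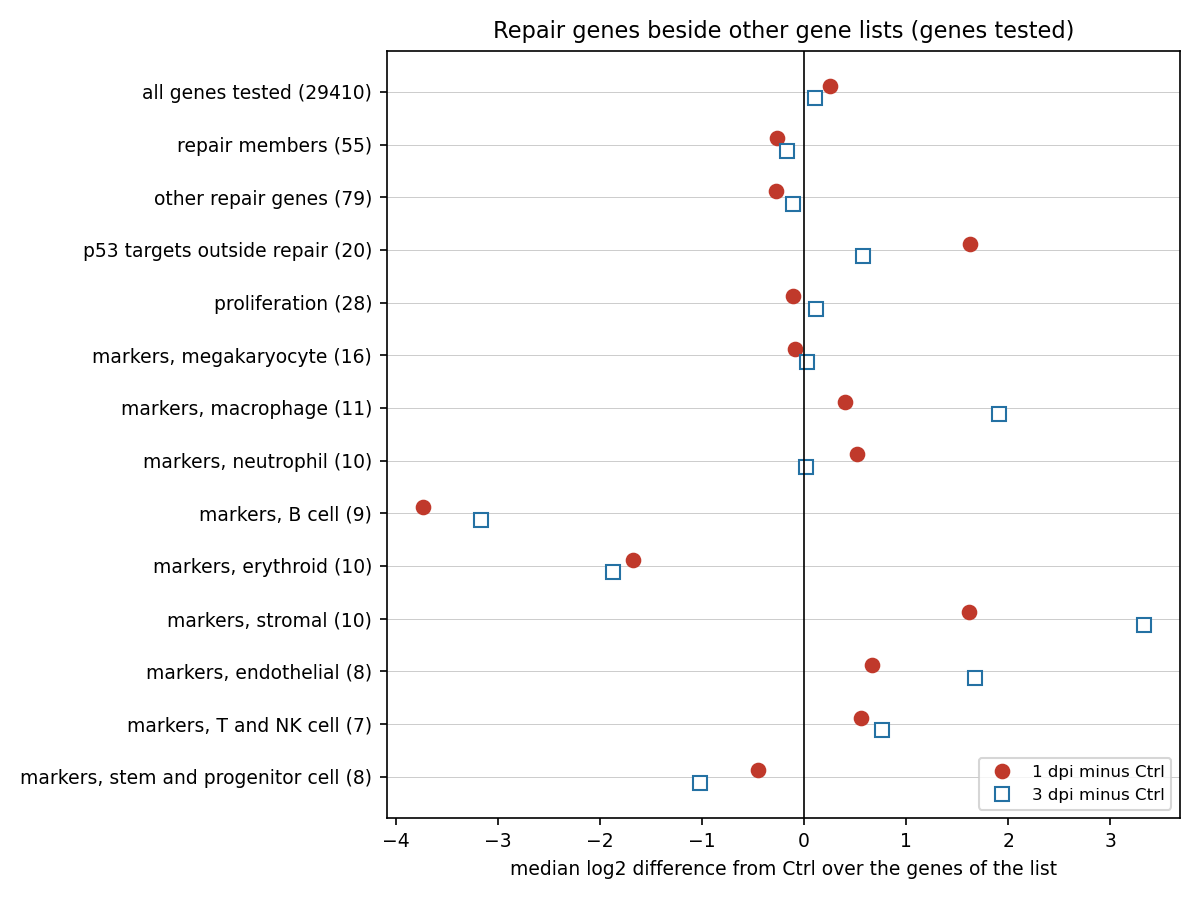
Median log2 difference from Ctrl (horizontal axis) over the genes of each list, with the number of genes tested in brackets; red circles are 1 dpi and blue open squares 3 dpi. The repair members lie at -0.27 and -0.17, close to the 79 other repair genes, while the p53 targets lie at 1.63 and 0.58 and the B cell markers at -3.74 and -3.17.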

How the data were processed

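RNA of megakaryocytes was read on 9 Agilent 1-colour arrays whose probe positions are on mm9; the methods describe an Affymetrix chip, and their array steps were not taken as those of these files. The authors deposited an intensity per spot from Agilent Feature Extraction 10.7.1.1, background-subtracted and not scaled between arrays, and a table of log2 values with nearly equal quartiles, used as an alternative only. Control spots and outlier spots were left out, spots of a probe averaged, and log2 intensity minus each array's 75th percentile was taken. A probe was kept if some group had it well above background on each of its 3 arrays, and the brightest stands for its gene. The fit was done by limma 3.58.1 (R 4.3.3) as a single model of 3 groups, with 6 residual degrees of freedom and Benjamini-Hochberg adjustment over 29410 genes. With 3 arrays against 3, the smallest p of an exact two-sided permutation test is 0.1. Named are all called members, Atm, Trp53, H2afx and Parp1 with each array, the extremes of each pathway, and at most 4 called genes of another list; further members and the order of probes were chosen after their values were seen. The members and lists were chosen with earlier results of these data known. Lists are described by counts and medians, without a test. The alternatives were other scalings, background corrections, filters, probe choices, tests, blocks and leaving out each array. The fit was tested on simulated data. Every sample column of the deposited table was used (0 left out). Figures were drawn with matplotlib 3.10.9.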

Additional observations from a re-analysis of the deposited data

Results flagged for a closer look

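The direct test between the irradiated groups set 2 members apart, both called in 3 dpi minus 1 dpi. Rad51c was 1.61 above Ctrl at 1 dpi and 0.32 above at 3 dpi, a difference between the days of -1.30 (limma, adjusted p = 0.00082). It was called lower under 24 of 25 other settings, the exception being the mean of its probes (-0.86). Its second, dimmer probe gave -0.42 between the days and did not pass the test (adjusted p = 0.13). Ung was 1.42 above Ctrl at 1 dpi and 0.16 above at 3 dpi, a difference of -1.26 (adjusted p = 5.3e-05). It was called lower under 23 of 25, the exceptions being quantile normalization (-0.89) and the deposited table (-0.81). Without Ctrl replicate 1 the values at 3 dpi were 0.10 for Rad51c and 0.26 for Ung. For both genes all 3 arrays at 3 dpi lay below all 3 at 1 dpi.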

How the results depend on the processing

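Under the other settings, Rad51c kept its call higher and Lig4 its call lower at 1 dpi in 25 of 25, Ung and Ercc5 in 24, Gadd45b in 23 and Dclre1c in 17. In 1 dpi minus Ctrl the main counts were 5 members called higher and 1 lower. They were 5 and 3 with quantile normalization, 2 and 7 with each array set to its median, 3 and 5 with all genes centred on their median (chosen after seeing the data), and 5 and 6, or 11 in all, in the deposited table, which holds 51 members and shares the probe used here for 24. The added calls lower include Chek1 and Palb2 under quantile normalization, and Atm and Atr in the deposited table. By adjusted p alone the counts were 9 and 30 (39 in all), and with the methods' t-test at its unadjusted threshold and no minimum fold, also chosen after seeing the data, 8 and 31 (39 in all). That t-test with the 2-fold minimum gave 5 and 1, with or without Benjamini-Hochberg adjustment. In 3 dpi minus Ctrl the main count was 0 with limma. It was 0 higher and 2 lower (2 in all) in the deposited table, 4 and 22 (26) by adjusted p alone, and 8 and 23 (31) by the t-test alone. In 3 dpi minus 1 dpi the main counts were 0 and 2. They were 1 and 1 with quantile normalization, 1 and 2 with the array median, 3 and 2 (5) in the deposited table, 0 and 1 (1) with the mean of all probes, 13 and 8 (21) by adjusted p alone, and 18 and 12 (30) by the t-test alone. The value of Polh in this comparison reversed in the deposited table, to 1.16 from -0.27. Leaving out each array in turn gave 4 to 5 members higher and 1 to 2 lower at 1 dpi, and the same counts as before elsewhere. Without Ctrl replicate 1, which is also the fit within slide 2, 4 were higher and 1 lower; slide as a random block (correlation 0.65) gave the same. Same-numbered arrays do not pair: 1 of 9 pairs correlated above 0.1, and a replicate block left 5 and 1, 0 and 0, and 0 and 2 members called. Over all genes, the share of calls that were higher at 1 dpi went from 81.1% to 56.3% with quantile normalization, 48.8% with the array median, 59.4% with centring and 50.3% in the deposited table. In 3 dpi minus 1 dpi it went from 45.2% to 62.4%, 67.2%, 54.6% and 64.1% in the same order, to 24.9% with normexp background correction and to 26.7% without the filter. Among 1371 values of members per comparison, 70 uncalled values changed sign at 1 dpi, 39 at 3 dpi and 51 between the days. The causes were not tested. The probe used for each member was well above background on all 9 arrays. With only end probes that met this too (chosen after seeing the data), the share of members with the 5′ probe higher went from 80.5% to 86.1% at 1 dpi, from 63.4% to 58.3% at 3 dpi and from 22% to 13.9% between the days.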
